A study of Mus musculus with 6 samples.

Results

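Genes of the choroid plexus were followed through 6 coronal mouse brain sections of 3 ages: Ttr, Kl, Folr1, Clic6, Aqp1, Enpp2 and Igf2. They were taken by symbol from a list and are 7 of the 32285 genes in the files. Their levels were read in choroid plexus spots, and Ttr was also read in spots without any of the other 6 genes. The sections came from C57BL/6J males, an inbred mouse strain, aged 6 months (young), 18 months (middle) and 21 months (old), with 2 sections per age. The labels give 2 males per age, so that each section was taken as a separate animal, and no treatment or genetic change is labelled. Visium spatial RNA sequencing lays a section on a grid of barcoded spots and counts captured transcripts as unique molecular identifiers (UMIs). A spot can hold several cells of different types, or part of one. Both young sections, middle 1 and old 1 shared slide 1, while the other two sections were on slide 2. Slide and age can therefore not be fully told apart.

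The choroid plexus is a sheet of epithelium over leaky capillaries that hangs into the brain ventricles and secretes cerebrospinal fluid. Its epithelial cells carry ions, water, vitamins and hormones from blood to the fluid and secrete proteins of their own. Transthyretin, the product of Ttr, binds thyroid hormone and, with retinol-binding protein, vitamin A. Klotho, the product of Kl, is a co-receptor for the hormone FGF23 whose outer part is also shed into body fluids, and mice that lack it show early features of ageing. Autotaxin (Enpp2) makes the signalling lipid lysophosphatidic acid, and Igf2 encodes an insulin-like growth factor released into the fluid. Folr1 encodes the folate receptor that moves folate into the fluid, Clic6 a chloride intracellular channel protein, and Aqp1 a water channel of the apical membrane.

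A spot was called a choroid plexus spot when it held at least 500 UMIs and at least 0.1% of them came from 12 choroid plexus markers, none of which is among the 7 genes. The markers were Kcnj13, Kcne2, Otx2, Sostdc1, Tmem72, Slc4a5, F5, Steap1, Col8a2, Cldn2, Prlr and Calml4. Of 16741 spots kept, 165 met the rule, namely 24 and 24 (young), 16 and 40 (middle) and 32 and 29 (old). As a share of all spots this was 0.933% and 0.856% in young, 0.585% and 1.43% in middle and 1.08% and 1.02% in old sections, and an exact permutation test over the 3 ages gave p = 0.867 (1 after Benjamini-Hochberg adjustment over 3 such results). The smallest p this design allows is 0.0667. Without middle 1 or without middle 2 the same exact test gave p = 0.0667. The class is a range and not a type: 78 spots lay between 0.05% and 0.1% and 60 between 0.1% and 0.2%. In old 2, 2 of the choroid plexus spots had fewer than 10 marker UMIs and none of the 6 other genes, so they also met the rule for spots without those genes. The labelled tissue is a whole coronal section, and each of the 12 markers was found in the choroid plexus spots of every section.

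The files held 2573 to 2973 spots and 60939185 to 77557934 UMIs per section. The median spot of the choroid plexus held 46709 and 35752 UMIs in young, 40017 and 27340 in middle and 32743.5 and 32121 in old sections. UMIs were summed over the choroid plexus spots of each section, and sections are the replicates. Levels are given as UMIs per 1e+06 UMIs of the sum (counts per 1e+06, CPM). In such sums, fewer cells of a type and less RNA per cell cannot be told apart. Barcodes do not mark cells here, since all slides carry the same grid, and 1920 of 3389 barcodes occurred in all 6 sections. Between replicates, counts in the choroid plexus spots varied by 3.18, 2.56 and 1.79 times what counting error alone gives (chi-square over its degrees of freedom, for young, middle and old sections).

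The upstream sequences of Kl and Aqp1 are shown because most transcripts of these genes lay in the choroid plexus spots (72.2% of Kl and 78.7% of Aqp1 UMIs, mean of 6 sections), where the marker Otx2, a homeodomain factor of that epithelium, was also read. The RefSeq promoter table (GRCm38.p6) matched 3 of the 7 genes. Each sequence gives the 250 bases before the start in that table, with CG dinucleotides in capitals.
Kl, chr5:150952357-150952606, plus strand: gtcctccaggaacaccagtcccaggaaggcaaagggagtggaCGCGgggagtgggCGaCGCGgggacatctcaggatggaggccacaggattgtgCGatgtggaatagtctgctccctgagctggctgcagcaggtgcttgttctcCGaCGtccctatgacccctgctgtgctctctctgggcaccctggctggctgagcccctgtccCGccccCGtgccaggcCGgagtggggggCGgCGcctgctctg
Aqp1, chr6:55336049-55336298, plus strand: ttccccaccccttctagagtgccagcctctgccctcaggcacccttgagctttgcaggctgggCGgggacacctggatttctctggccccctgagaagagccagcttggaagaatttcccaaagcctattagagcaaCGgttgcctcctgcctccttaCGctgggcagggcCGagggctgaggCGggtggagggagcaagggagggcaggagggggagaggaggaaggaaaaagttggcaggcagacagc
The Kl window held 13 CG dinucleotides at a GC content of 66.8%, and the Aqp1 window held 5 at 62%, where the median of 32851 windows of the same length was 6 CG dinucleotides. The motif TAATCC, the core that OTX2 binds, was searched on both strands. It was in neither window and in 6.25% of all windows, which says only that these letters are not there. The third gene used, Igf2, has 4 start sites in the table, and the motif was in none of their windows.

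In choroid plexus spots Ttr, the transthyretin gene, made up 18.6% and 20.0% of all UMIs in young, 19.9% and 20.6% in middle and 22.6% and 22.7% in old sections, or 185631, 200086, 198599, 206213, 226268 and 226887 CPM in that order. Both old sections lay above all 4 of the others, while the middle sections overlapped the young range. The gene spans chromosome 18, 20665280 to 20674321 on the plus strand (GENCODE M21, GRCm38), with no other gene annotated over it. Young sections averaged 192858 ± 10221 CPM (SD, n = 2). Middle sections averaged 202406 ± 5383 (SD, n = 2), and old sections 226578 ± 437 (SD, n = 2). With edgeR's quasi-likelihood test across all genes, old against young gave a log2 fold change of 0.26 (SE 0.36) with a Benjamini-Hochberg adjusted p of 0.939, so the difference did not pass the threshold of 0.05. Each SE given with an edgeR value was derived from the test statistic, which draws on a spread estimated across genes. It is therefore not the spread of the Ttr sections alone. Middle against young gave 0.08 (SE 0.36, adjusted p = 0.982), which turned to -0.00245 with spots of at least 0.05% marker UMIs. Old against middle gave 0.18 (SE 0.36, adjusted p = 1.00).

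Ttr was also set against the summed UMIs of the 12 choroid plexus markers. There were 54.3 and 60.9 Ttr UMIs per marker UMI in young, 68.3 and 77.8 in middle and 80.5 and 75.1 in old sections. On this scale both young sections lay below the other 4. With the fit scaled to the sum of the 12 markers, old against young was 0.43 for Ttr (adjusted p = 0.581) and middle against young 0.34 (adjusted p = 0.449). That scaling put the median of all genes at 0.17 in old against young, 0.28 in middle against young and -0.11 in old against middle. The markers themselves had negative log2 fold changes for 11 of 12 in old against young, with a median of -0.19 against -0.0067 over all genes tested, and for 12 of 12 in middle against young, with a median of -0.28. None of the 12 was called in either comparison. The same markers chose the spots and are the denominator of the ratio and of the scaled fit. Their own levels, and values on this scale, are therefore partly set by the rule, and no conclusion is drawn from them. The share of all genes that separated the ages on this scale was not counted.

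**Figure D1:**
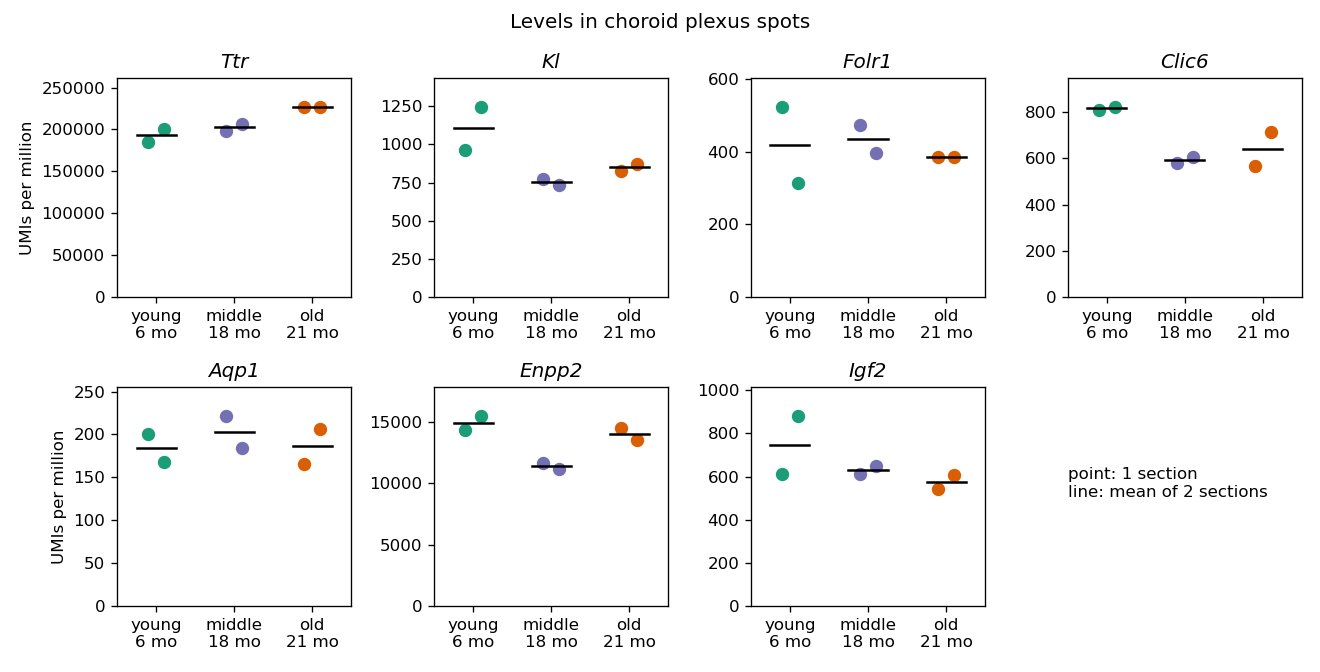
Level of each of the 7 genes in choroid plexus spots, in CPM on axes that start at 0, by age (6, 18 and 21 months). Points are sections and lines the means of 2 sections. Ttr is highest in both old sections, and Kl and Clic6 are highest in both young sections.

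Kl, the klotho gene, was read in choroid plexus spots at 965 and 1245 CPM (young), 775 and 732 (middle) and 827 and 873 (old). Both young sections were above the other 4, and both old sections were above both middle sections. These values rest on 514 to 1192 Kl UMIs per section. The gene spans chromosome 5, 150952607 to 150993817 on the plus strand, with no other gene annotated over it. In edgeR's test the log2 fold change was -0.35 (SE 0.17, adjusted p = 0.751) in old against young, -0.53 (SE 0.17, adjusted p = 0.371) in middle against young and 0.19 (SE 0.17, adjusted p = 1.00) in old against middle. None of these passed the threshold. Without young 1 the middle against young value was -0.65 with an adjusted p of 0.0431, the only alternative for any of the 7 genes in choroid plexus spots that reached it. Per 100 marker UMIs there were 28.3 and 37.9 Kl UMIs in young, 26.6 and 27.6 in middle and 29.4 and 28.9 in old sections, and on that scale the ages overlapped between young and old. With the 30 spots of largest marker share per section, which hold spots below the threshold where a section had fewer, old against young was -0.023.

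Enpp2, the autotaxin gene, was read in choroid plexus spots at 14316 and 15471 CPM in young, 11658 and 11126 in middle and 14458 and 13513 in old sections. Both middle sections were below the other 4, and young and old overlapped. The log2 fold changes were -0.37 (SE 0.24, adjusted p = 0.806) in middle against young, 0.31 (SE 0.24, adjusted p = 1.00) in old against middle and -0.062 (SE 0.24, adjusted p = 0.981) in old against young by edgeR. The old against young value was 0.11 when scaled to the 12 markers and 0.011 with slide as a block, so its sign is not settled. The gene spans chromosome 15, 54838901 to 54952892 on the minus strand, and the annotated gene Gm26684 lies over it on the other strand.

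Igf2, the growth factor gene, was read at 614 and 881 CPM in young, 612 and 648 in middle and 544 and 606 in old sections. In CPM, whose sum includes Ttr, both old sections were below the other 4, with old 2 at 606 CPM next to middle 1 at 612. This order was not examined with Ttr left out of the sum. The log2 fold change was -0.34 (SE 0.17, adjusted p = 0.752) in old against young, -0.22 (SE 0.17, adjusted p = 0.863) in middle against young and -0.12 (SE 0.17, adjusted p = 1.00) in old against middle. Scaled to the 12 markers, middle against young was 0.03. Igf2 spans chromosome 7, 142650766 to 142666816 on the minus strand. The annotation also places Gm49394 and Mir483 there on the same strand and Igf2os on the other strand. The counting of reads shared with Gm49394 or Mir483 was not examined. Igf2os had 0 to 3 UMIs in the choroid plexus spots of a section, against 406 to 758 for Igf2.

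Among the transport genes, Clic6 was read at 810 and 822 CPM in young, 582 and 607 in middle and 566 and 715 in old choroid plexus spots. Both young sections were above the other 4. Its log2 fold change was -0.33 (SE 0.17, adjusted p = 0.764) in old against young and -0.45 (SE 0.17, adjusted p = 0.533) in middle against young, which edgeR did not call. Clic6 spans chromosome 16, 92485736 to 92541243 on the plus strand, where 2410124H12Rik overlaps it on the same strand. How reads in the overlap were counted was not examined.

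The folate receptor gene Folr1 was read at 524 and 315 CPM in young, 473 and 398 in middle and 387 and 387 in old sections. The 2 young sections were the highest and the lowest of all 6, so their own difference exceeded any difference between ages, and the log2 fold changes ran from -0.15 to 0.04. Folr1 lies on chromosome 7, 101858331 to 101870788 on the minus strand, with Anapc15 over it on the other strand. The water channel gene Aqp1 was read at 200 and 168 CPM in young, 222 and 184 in middle and 166 and 206 in old sections, which overlapped at all ages. Its log2 fold changes ran from -0.10 to 0.12. Aqp1 lies on chromosome 6, 55336432 to 55348555 on the plus strand, with no other gene annotated over it.

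**Figure D2:**
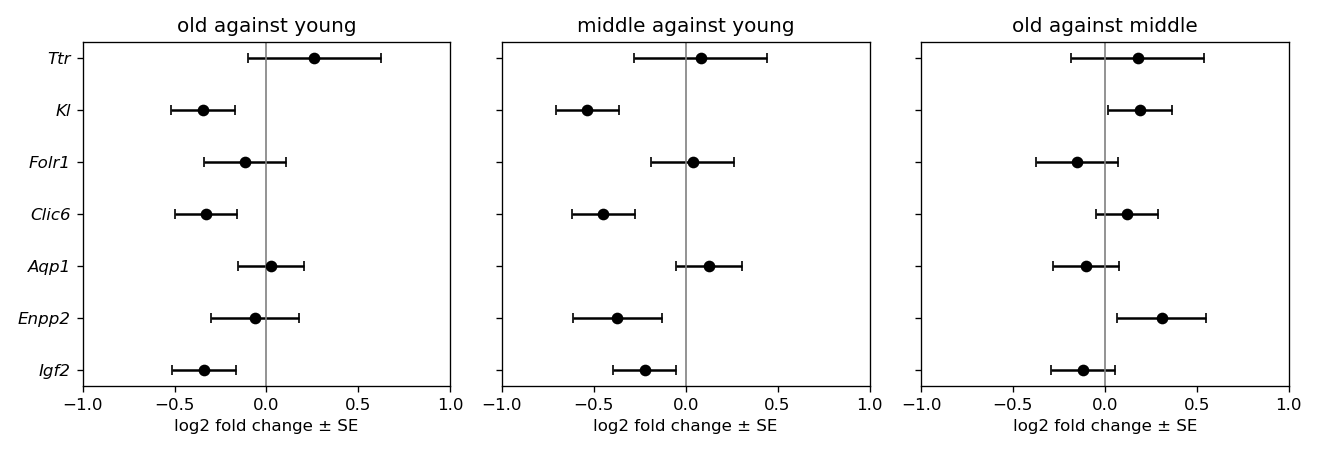
Log2 fold change of the 7 genes in choroid plexus spots by edgeR, with bars of 1 standard error, for old against young, middle against young and old against middle. No value passed the threshold, and Kl and Clic6 are the farthest below 0 in middle against young, at -0.53 and -0.45.

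Across all genes, edgeR called 19 of 10110 in old against young, or 0.188% (0.0791% higher and 0.109% lower), and 23 in middle against young, or 0.227% (0.119% higher and 0.109% lower). None of the 7 genes was called in either, and none had an unadjusted p under 0.05 in old against young. In middle against young Kl and Clic6 had one, at 0.00473 and 0.0137 by edgeR. Old against middle gave 0 calls with edgeR, or 0%, and 0 with DESeq2, with 536 genes at an unadjusted p under 0.05 by edgeR and none of the 7 among them. DESeq2 called 4 genes in old against young and 6 in middle against young, again none of the 7. Both comparisons against young share the young sections. Leaving out 1 section moved the old against young count from 19 to 76 (without young 2), 39 (without middle 1), 44 (without middle 2) or 42 (without old 2). The middle against young count moved from 23 to 15 (without young 1), 78 (without young 2), 44 (without old 1) or 45 (without old 2). The old against middle count moved from 0 to 20 (without young 1), 19 (without young 2), 3 (without middle 2), 1 (without old 1) or 10 (without old 2).

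By the plain order of the sections in CPM, 4 of the 7 genes had groups that did not overlap in old against young: Ttr was higher in old, and Kl, Igf2 and Clic6 were lower. The sum behind CPM includes Ttr, at 18.6% (young 1) to 22.7% (old 2) of the UMIs. A higher Ttr share therefore lowers the CPM of every other gene. The order of the sections with Ttr left out of the sum was not examined. Of all genes tested, 15.8% had no overlap with old higher and 20.4% with old lower. In middle against young Kl, Enpp2 and Clic6 were lower without overlap, where 17.5% of all genes were, and none was higher, where 16.4% were. In old against middle Kl, Enpp2 and Ttr were higher without overlap (15.1% of all genes) and Folr1 and Igf2 lower (19% of all genes). The median log2 fold change of the 7 genes was -0.11 in old against young, -0.22 in middle against young and 0.12 in old against middle, beside -0.0067, 0.0022 and -0.0073 over all genes.

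The genes with the largest changes that edgeR called in choroid plexus spots were not among the 7. Hspa1a and Hspa1b, which encode heat shock proteins, were lower in both older ages: Hspa1b was at 163 and 160 CPM in young, 19.6 and 18.1 in middle and 14.3 and 9.97 in old sections, which is -3.68 on the log2 scale (SE 0.25, adjusted p = 2.55e-10) in old against young. Thbs4, which encodes a thrombospondin of the extracellular matrix, was at 25.9 and 30.4 CPM in young against 4.77 and 4.43 in old sections (-2.54, adjusted p = 0.00374), a call that was lost with DESeq2 (adjusted p = 0.295), at the 0.2% threshold (0.314) and with the 30 top spots (0.0905). Dnajb1, a co-chaperone gene, was lower in middle than in young sections (-1.89). Syt13, Cabp1 and Cadps2, genes of vesicle release and calcium sensing, had higher values in old than in young sections (1.88, 1.65 and 1.88). Each lost its call with slide as a block (adjusted p = 0.386, 0.305 and 0.211), with DESeq2 (0.845, 1.00 and 1.00), with the 30 top spots (0.492, 0.375 and 0.859) and without young 1 (0.420, 0.177 and 0.416). Cabp1 also lost it without young 2 (0.0907 adjusted) and without old 1 (0.337), and Cadps2 without old 1 (0.213). Mog, a myelin gene, was at 57.5 and 68.9 CPM in young and 152 and 150 in middle sections, with a log2 fold change of 1.27 (SE 0.22, adjusted p = 0.00663) that missed the threshold without young 1 (1.20, adjusted p = 0.0876) and with DESeq2 (1.28, adjusted p = 0.0822). Trem2, a microglial receptor gene, and Opalin, a myelin gene, had higher values in middle than in young sections (2.05 and 1.29). With slide as a block Mog, Trem2 and Opalin were not called (adjusted p = 0.299, 0.382 and 0.439), nor with the 30 top spots (1.00 for each). Trem2 lost its call without young 1 (adjusted p = 0.340) or middle 1 (0.0566), and Opalin without young 1 (0.225) or middle 2 (0.109).

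Markers of other cells moved with some of these comparisons, and their part in the results was not tested. The 7 white matter markers summed to 3220 to 5900 CPM in the young, 7154 to 8527 in the middle and 3582 to 4902 in the old choroid plexus spots. In middle against young 2 of these 7, Mog and Mag, were called higher, and all 7 had positive values with a median of 0.89. The 5 neuron markers summed to 457 to 575 CPM in young, 493 to 862 in middle and 646 to 702 in old sections, and the 7 ependyma markers to 1247 to 1387, 1120 to 1171 and 1092 to 1103. The 7 meninges markers summed to 337 to 504, 286 to 322 and 412 to 438, the 5 astrocyte markers to 556 to 694, 748 to 752 and 662 to 762, and the 5 endothelium markers to 146 to 161, 136 to 146 and 149 to 156. Microglia markers summed to 131 to 192, 182 to 187 and 155 to 183, haemoglobin genes to 11.3 to 14.0, 3.02 to 27.5 and 22.9 to 41.0, and border macrophage markers to 5.84 to 11.3, 6.03 to 7.74 and 7.63 to 17.7. Of the border macrophage markers none passed the filter on low counts, and Lyve1 was at 0 in 5 of the 6 sections. Region markers also differed: the 4 habenula markers summed to 9.72 and 80.6 CPM in young, 18.1 and 67.9 in middle and 216 and 84.2 in old sections, and the 3 that were tested had positive values in old against young (median 1.76). The 7 striatum markers summed to 576 and 484 CPM in young against 392 and 453 in old sections, with negative values for all 5 tested (median -1.25). In each section this list stood higher in choroid plexus spots than in the whole section, for example 576 against 338 CPM in young 1 and 392 against 184 in old 1. Its sum can therefore not be read as striatum tissue alone, and the part of each gene in it was not tested. The 5 hippocampus markers summed to 34.0 and 33.9 CPM in young against 59.1 and 54.3 in old sections, with 2 of 3 tested positive (median 1.01). No marker of these 3 lists was called.

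The partners of the 7 genes were followed as 9 lists in the choroid plexus spots, and edgeR called no gene of any list in any of the 3 comparisons. Of the thyroid hormone list, 6 of 8 genes were tested, 2 with positive and 4 with negative values in old against young. Slco1c1, a thyroid hormone transporter, was at 338 and 354 CPM in young and 284 and 279 in old sections (log2 fold change -0.27, adjusted p = 0.819), and Crym, which binds the hormone in cells, had -0.71 (adjusted p = 0.814). The median of the thyroid hormone list was -0.11, beside -0.0067 over all genes. From the retinol list, the uptake receptor gene Stra6 had 0.29 (adjusted p = 0.881).

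Of the list of klotho and fibroblast growth factor genes, 7 of 10 were tested, 4 with positive and 3 with negative values in old against young. The receptor gene Fgfr3 was at 45.3 and 39.7 CPM in young and 27.6 and 31.0 in old sections (-0.53, adjusted p = 0.752). Fgf1, a ligand, ran from 6.03 to 59.1 CPM over the 6 sections (1.64, adjusted p = 0.861). Klb, the gene of the related co-receptor beta-klotho, had 0 UMIs in the choroid plexus spots of 5 sections and 2 in old 2. Of the insulin-like growth factor list 9 of 11 were tested, 3 with positive and 6 with negative values. The receptor gene Igf1r was at 67.2 and 79.4 CPM in young and 49.6 and 47.7 in old sections (-0.55, adjusted p = 0.636), and the binding protein gene Igfbp6 at 12.1 and 11.7 against 20.0 and 21.1 (0.79, adjusted p = 0.721). Of the lysophosphatidic acid list 4 of 8 were tested, 2 in each direction, and the phosphatase genes Plpp2 and Plpp3 had values of 0.42 and -0.24.

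Of the folate list 4 of 9 genes were tested, 2 in each direction, with the carrier gene Slc19a1 at 0.53 (adjusted p = 0.753). Of the fluid and ion transport list 13 of 14 were tested, 8 with positive and 5 with negative values and a median of 0.038. Its largest values were those of the carbonic anhydrase gene Car12 (-0.31, adjusted p = 0.810) and the ion channel gene Trpv4 (-0.26, adjusted p = 0.845). Of the barrier and transporter list all 13 were tested, 5 with positive and 8 with negative values and a median of -0.034. The tight junction gene Cldn1 was at 57.5 and 89.96 CPM in young and 45.8 and 38.8 in old sections (-0.74, adjusted p = 0.364), and Ocln, another, had -0.36. Of the list of proteins that the choroid plexus secretes all 11 were tested, 7 with positive and 4 with negative values. Apod, a lipid carrier gene, was at 220 and 380 CPM in young, 469 and 500 in middle and 390 and 593 in old sections (0.76, SE 0.21, adjusted p = 0.265), and was called in 5 of 20 alternatives, among them the fits without young 2 (1.11, adjusted p = 0.00211) and without old 1 (1.01, adjusted p = 0.0408). Trf, the transferrin gene, had 0.30 (adjusted p = 0.845).

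The 7 genes differed in how far the choroid plexus spots held their transcripts. These spots, about 0.585% to 1.43% of a section, held 81.8% to 88.7% of all Ttr UMIs and 74.0% to 85.5% of all Aqp1 UMIs. They held 70.9% to 79.5% of Folr1, 63.1% to 83.3% of Kl and 53.5% to 72.4% of Clic6, but only 33.8% to 52.9% of Enpp2 and 27.5% to 40.7% of Igf2. For Clic6 the 3 ages did not overlap, with 71.9% and 72.4% in young, 53.5% and 56.0% in middle and 62.5% and 62.7% in old sections. For Igf2 the ages overlapped, with 35.4% and 40.3% in young, 27.5% and 40.7% in middle and 35.6% and 32.5% in old sections. Such a share also depends on how many spots met the rule. How many of all genes separated the ages on it was not counted. Outside the choroid plexus spots Enpp2 was at 200 to 233 CPM and Ttr at 277 to 779 CPM, where Aqp1 was at 0.521 to 0.931 CPM.

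To place that remainder, 9 further groups of 50 spots per section were taken by markers of regions, among spots below the choroid plexus threshold. They are groups of like transcripts, not outlined anatomy. Ttr had a median over the 6 sections of 203149 CPM in choroid plexus, 9439 in ependyma, 2018 in habenula, 1328 in meninges, 964 in white matter, 790 in hippocampus and 597 in striatum. It was 129 in thalamus, 109 in isocortex, 107 in spots without the other genes and 60.03 in hypothalamus. The order held without overlap between sections only from choroid plexus to ependyma and from striatum to thalamus, and the other neighbours overlapped. Habenula spots ran from 59.8 to 7891 CPM of Ttr. In ependyma spots, which line the ventricles, Ttr was at 8118 and 5028 CPM in young, 8383 and 10495 in middle and 16227 and 12361 in old sections. The ages thus did not overlap, but no test was made of this difference. How many of all genes separated the ages in ependyma spots was not counted. Ependyma spots also held 201 to 354 CPM of the 12 choroid plexus markers, and habenula spots 63.1 to 216 CPM. The part of choroid plexus in their Ttr level was not tested.

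The other genes had second places of their own. Enpp2 was at a median of 13914 CPM in choroid plexus, 1311 in white matter and 1013 in ependyma spots, 3 groups that did not overlap, and at 72.4 in hypothalamus. Oligodendrocytes, the myelin-forming cells of white matter, are known to express autotaxin. Igf2 was at 613 CPM in choroid plexus and 422 in meninges spots, again without overlap, and at 70.8 in ependyma. Kl was at 850 CPM in choroid plexus, 37.7 in ependyma and 24.2 in hippocampus spots, where the latter ran from 3.11 in young 1 to 30.8 in old 1 and overlapped with ependyma. Folr1 and Aqp1 had medians of 48.2 and 9.53 CPM in ependyma, and in the other region groups their highest medians were 5.63 CPM (Folr1, habenula) and 3.34 CPM (Aqp1, meninges). Clic6 was at 52.4 CPM in ependyma and at 16.0 in hypothalamus and 15.7 in striatum spots, which overlapped.

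**Figure D3:**
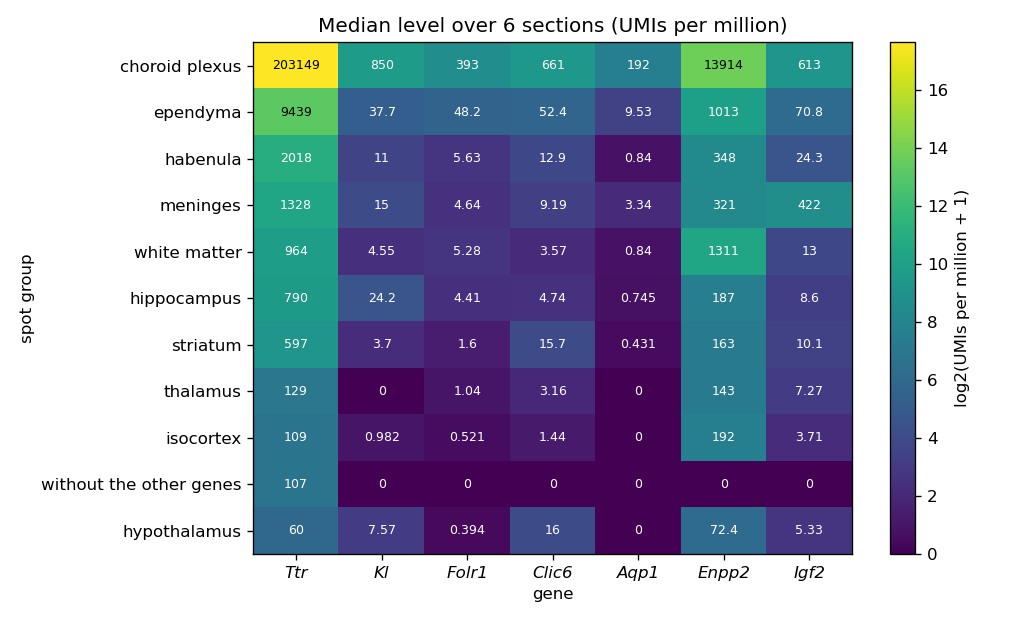
Median level over 6 sections of each gene (columns) in 11 groups of spots (rows), printed in CPM and coloured by log2(CPM + 1). Choroid plexus is the top row for all 7 genes, with white matter second for Enpp2 and meninges second for Igf2. The 0 values of 6 genes in spots without the other genes follow from the rule for those spots.

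Over the same 11 groups in 6 sections (66 sums, log2(CPM + 1)), the genes most like each of the 7 were found by Pearson's r among 10044 genes, with the 7 genes ranked apart from the rest. Between the 7, Ttr and Folr1 had 0.958, Kl and Aqp1 0.898, Clic6 and Kl 0.878 and Enpp2 and Folr1 0.784. These sums share sections, depth and the markers that chose the groups, so the values are descriptions. In spots without the other genes all of the 7 but Ttr are at 0 by the rule, and these zeros enter every r of those genes. Enpp2 had no value below 52.9 CPM in the other groups, so its zeros stand far from its other sums. The r without these sums was not computed. Outside the 7, the nearest to Ttr were 2900040C04Rik (0.959), Kcne2, Kcnj13, Ecrg4 and Wfdc2, of which Kcne2 and Kcnj13 are markers of the spot rule. For Kl, outside the 7, they were Kcne2 (0.895), Mcee, Kcnj13, Rps27l and 2900040C04Rik. Folr1 and Aqp1 had 2900040C04Rik first outside the 7 (0.951 and 0.945), with Wfdc2 and the rule's marker F5 among the next, and Clic6 had Mcee (0.863). Enpp2 had lower values, with Serp1 (0.785), Lamp2 and Slc4a2 first outside the 7. For Igf2, again outside the 7, they were Slc13a4 (0.903), a marker used for the meninges spots, and then Pcolce, Serpinh1 and Tuba1c.

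Within the choroid plexus spots of a section, Ttr varied from spot to spot along with the other 6 genes to different degrees. On the log2 scale the median r over the 6 sections was 0.945 with Enpp2, 0.906 with Kl, 0.875 with Clic6, 0.843 with Igf2, 0.705 with Folr1 and 0.641 with Aqp1. The lowest section values were 0.890 for Enpp2 and 0.0544 for Folr1. In old 2, the 2 spots with none of the other 6 genes, which had 0 and 1 Ttr UMIs, enter each r of that section. They stand far from its other spots, and r without them was not computed. These spots share libraries and differ in how much choroid plexus they hold. The highest spot of a section had 26.9% (young 1) to 37.1% (middle 2) of its UMIs from Ttr. At the other end, 1 spot of old 2 had 0 Ttr UMIs, and the lowest spot of the other 5 sections had 10203 (young 1) to 64921 CPM (young 2).

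**Figure D4:**
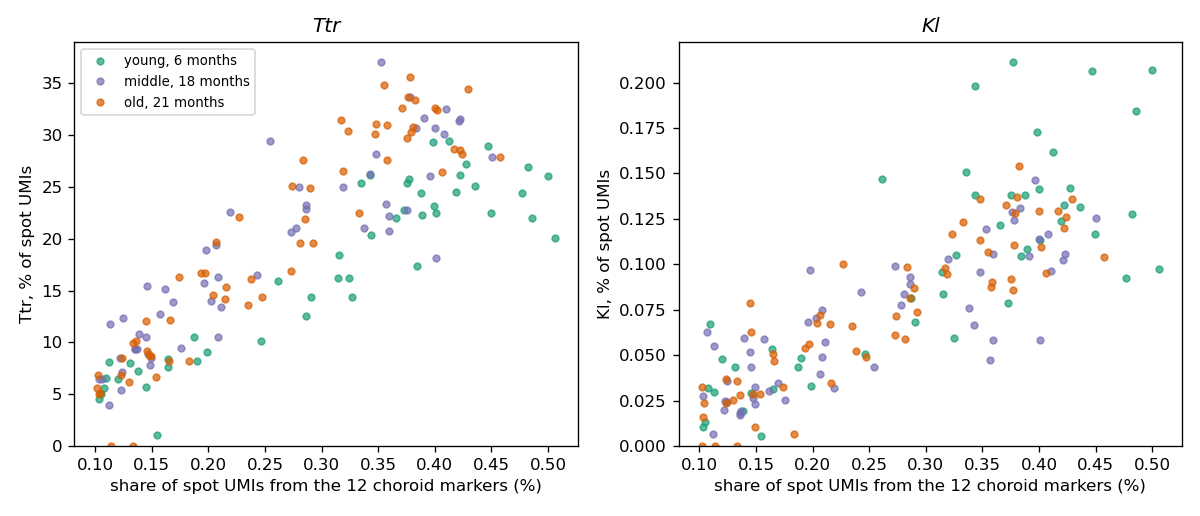
Share of spot UMIs from Ttr (left) and Kl (right) against the share from the 12 choroid plexus markers, in percent, for the 165 choroid plexus spots. Each point is 1 spot, coloured by age. Both genes are higher where the marker share is higher, and spots of 1 age share 2 sections, so they are not replicates.

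Ttr and Enpp2 were read in most spots of every section, and the other 5 genes in few. At least 1 Ttr UMI was found in 67.7% to 90.5% of the spots of a section, against 2.12% to 3.43% for Aqp1, 3.66% to 5.43% for Folr1, 8.12% to 11.3% for Kl, 8.42% to 15.3% for Clic6 and 17.5% to 20.7% for Igf2. Enpp2 was read in 90.9% to 95.8%, more than Ttr in each of the 6 sections. Of the Ttr UMIs of a section, 11.3% and 13.9% lay outside the choroid plexus spots in young, 13.7% and 18.0% in middle and 18.2% and 15.4% in old sections. Both old sections were above both young ones, and the exact permutation test over the 3 ages gave p = 0.4 (1 after Benjamini-Hochberg adjustment over 3 such results). With a threshold of 0.05% marker UMIs the shares were 8.75% and 12.6%, 10.0% and 11.6%, and 11.8% and 11.7%, so that young and old overlapped.

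Spots with at least 500 UMIs and 0 UMIs of each of Kl, Folr1, Clic6, Aqp1, Enpp2 and Igf2 numbered 71 and 95 in young, 116 and 104 in middle and 156 and 162 in old sections, 704 in all. These spots were shallower than the median spot of their own section in all 6 sections: their median depth was 15144 to 23776 UMIs, against 20370 to 30093 over all spots. Both old sections, which were the shallowest of the 6, had the most such spots. At an equal depth of 10000 UMIs per spot the same rule gave 492 and 557 spots in young, 564 and 533 in middle and 571 and 480 in old sections, so that old 2 then had the fewest. Ttr was still found in 62.0% and 73.7% of these spots in young, 54.3% and 87.5% in middle and 73.1% and 72.8% in old sections, with a median of 1 or 2 UMIs per spot. Their hypothalamus markers summed to 661 to 960 CPM, against 352 to 497 in whole sections, and white matter markers to 2449 to 3647, against 5940 to 6931. Ependyma markers summed to 16.4 to 27.6 CPM in young, 12.6 to 74.5 in middle and 69.2 to 70.1 in old sections. In old against young all 7 were positive (median 1.72) and none was called. The part of this mix in the Ttr level was not tested.

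The Ttr level in these spots was 59.5 and 127 CPM in young, 40.4 and 146 in middle and 86.4 and 133 in old sections, from 94 to 362 UMIs per section. The ages overlapped in each comparison, where 23.3% of all genes were higher and 11.2% lower without overlap in old against young, 19.3% and 10.8% in middle against young, and 17.2% and 15.3% in old against middle. Replicates of an age differed by more than the ages did: the means were 93.3 ± 47.9 (SD, n = 2), 93.1 ± 74.5 (SD, n = 2) and 109.6 ± 32.8 (SD, n = 2). The edgeR log2 fold change was 0.15 (SE 0.80, adjusted p = 0.998) in old against young, -0.12 (SE 0.83) in middle against young and 0.27 (SE 0.79) in old against middle. In old against young 1 of 12077 genes was called, or 0.00828%, the heat shock gene Hspa1a (-1.71, adjusted p = 0.0356), and Ttr was not. That count was 3 without young 1, 6 without young 2 and 0 without old 2. Middle against young and old against middle gave 0 calls with edgeR, with 403 and 369 genes at an unadjusted p under 0.05, and 1 and 0 calls with DESeq2. The middle against young count was 3 without young 1, 2 without young 2, 2 without middle 1 and 1 without middle 2, and the old against middle count was 2 without middle 2. The old against young value of Ttr turned to -0.22 without young 1 and to -0.21 without old 2, that of middle against young to 0.49 without young 2 and 0.54 without middle 1, and that of old against middle to -0.39 without middle 1 and -0.090 without old 2.

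Both sections of slide 2, middle 2 at 146 and old 2 at 133 CPM, were above all 4 sections of slide 1, which ran from 40.4 to 127 CPM. Within slide 1 the single middle and old sections, at 40.4 and 86.4 CPM, lay below and within the range of the young sections, and slide 2 held no young section. With slide as a block, old against young of Ttr was -0.47 (adjusted p = 0.999). The relation of this level to the share of choroid plexus spots in the section did not pass a test: over the 6 sections r was 0.71 (exact permutation p = 0.101, 0.304 after adjustment over 3 relations) and Spearman's rho 0.714 (p = 0.136 by exact permutation, 0.408 adjusted). Without middle 1 and middle 2, the sections with the fewest and the most choroid plexus spots, r was -0.15, so that the relation rests on those samples. The relation with the Ttr share of the whole section (r = 0.49, rho = 0.486, exact permutation p = 0.317 and 0.356, adjusted 0.472 and 0.533) and that with spot depth (r = -0.35, rho = -0.314, exact permutation p = 0.472 and 0.564, adjusted 0.472 and 0.564) did not pass either, and r was 0.48 and -0.40 without the 2 farthest sections.

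As a share of the level in choroid plexus spots of the same section, Ttr in spots without the other genes was at 0.0320% and 0.0636% in young, 0.0203% and 0.0707% in middle and 0.0382% and 0.0585% in old sections. The exact permutation test over the 3 ages gave p = 1. The test of whether the old against young change differed between both kinds of spots gave 0.08 for Ttr (SE 0.85, adjusted p = 1 by edgeR), with 5 of 12232 genes called, or 0.0409% (0.00818% higher and 0.0327% lower). It turned to -0.50 without young 2 and to -0.25 without old 1. The other 6 genes are at 0 in these spots by the rule and have no value in this test. The count of 5 calls became 10 without young 2, 25 without either middle section, 1 without either old section and 0 without young 1.

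Thinning every spot to 10000 UMIs left out 130 to 350 shallower spots per section. Ttr was then found in 49.4% and 66.4% of the spots that met the same rule in young, 39.4% and 63.4% in middle and 55.2% and 57.7% in old sections, at 0.849 to 1.66 UMIs per spot, so that these values stand near 1 UMI. With Enpp2 and Igf2 allowed, 2042 to 2432 spots per section had 0 UMIs of Kl, Folr1, Clic6 and Aqp1. Their Ttr level was 172 and 186 CPM in young, 127 and 232 in middle and 181 and 215 in old sections, and the ages again overlapped.

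Ttr was higher at each higher share of choroid plexus markers. In 12730 spots with no marker UMI the median over sections was 178 CPM, and it was 478, 1857, 8969 and 26982 CPM in spots whose marker share was up to 0.01%, 0.02%, 0.05% and 0.1%. Inside the threshold it was 81903 CPM at 0.1% to 0.2%, 170302 at 0.2% to 0.3% and 280769 above 0.3%. Spots just outside and just inside the threshold thus had 26982 against 81903 CPM of Ttr, 108 against 347 CPM of Kl and 1899 against 4837 CPM of Enpp2. Ttr UMIs per marker UMI were 12.02 in spots of the lowest marker share above 0 and 72.6 in those above 0.3%. The groups were cut by the markers, which are also the denominator of this ratio. Spots with no marker UMI, which also held Ttr, have no ratio and are left out of the lowest group. The difference in ratio is therefore partly set by the grouping, and no conclusion is drawn from it.

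The other 6 genes were also higher above 0.3% than in spots with no marker UMI. From spots with no marker UMI to those above 0.3%, Kl went from 3.18 to 1161 CPM, Folr1 from 0.750 to 501, Aqp1 from 0.372 to 246, Clic6 from 3.28 to 859, Enpp2 from 195 to 17617 and Igf2 from 11.5 to 820 CPM. In spots of 0.05% to 0.1%, of which a section had 7 to 19, Ttr was at 17820 and 14303 CPM in young, 20588 and 48867 in middle and 44564 and 33375 in old sections. Above 0.3% it was at 227841 and 248673 in young, 283173 and 278364 in middle and 314834 and 298042 in old sections. These 3 ages did not overlap. At 0.2% to 0.3% the middle sections, at 133464 and 220227 CPM, overlapped both young (143933 and 121660) and old sections (200265 and 196672). How many of all genes separated the ages in such groups of spots was not counted. No test was made of this division.

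**Figure D5:**
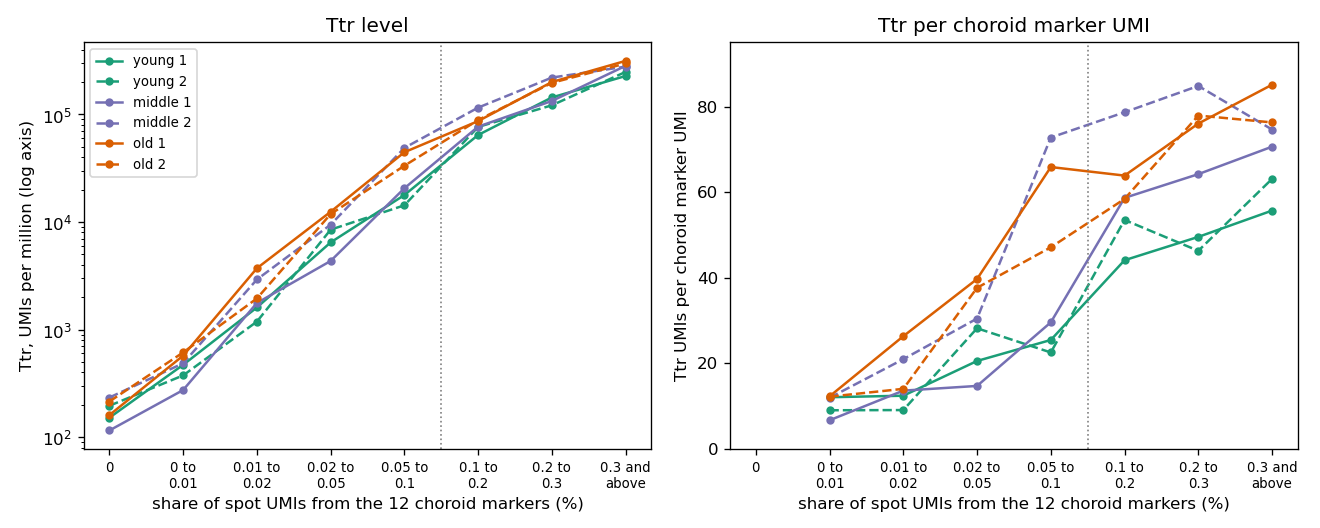
Left, Ttr in CPM (log axis) in spots grouped by the share of their UMIs from the 12 choroid plexus markers, with 1 line per section. Right, Ttr UMIs per marker UMI in the same groups. The dotted line is the threshold for choroid plexus spots, and the young sections end lowest in the group of 0.3% and above.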

How the data were processed

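Visium libraries were made from 16 µm coronal brain sections after 20 min of permeabilization, per the labels' protocols. The deposited values are UMI counts per gene and spot, written by Space Ranger 1.3.1 per the file headers, while the submitters' processing notes name Space Ranger 3.1 and mm10. The counting strand is not given in the sources used here. A minimum of 500 UMIs per spot was applied, which removed few spots (1 each in middle 2 and old 2). No doublet caller was run on spots. Counts were summed per section over choroid plexus spots and over spots with 0 UMIs of the 6 other genes, and tested across all genes with edgeR 4.0.16 in R 4.3.3 (TMM, filterByExpr, robust quasi-likelihood test, all 6 sections sharing 1 estimate of spread, Benjamini-Hochberg adjusted p under 0.05). DESeq2 1.42.0 was an alternative. The fits were tested on simulated data. Section values were compared by exact permutation. Genes and lists were chosen with earlier results of these data known. Named genes were the 7, the 2 largest changes of each list, the 3 largest called per direction with a mean of at least 10 CPM and no overlap, and the 5 most alike per gene. Some results that this rule names are not reported here. Gene positions are from GENCODE M21, where 32235 of 32285 identifiers matched. The labels do not say that a shared replicate number marks a shared batch or litter, and deviations of same-numbered sections correlated at 0.0903, -0.0397 and -0.0335 in choroid plexus spots and at -0.0223, 0.137 and 0.0538 in spots without the other genes (young with middle, young with old, middle with old). Not every pair was above 0.1, so sections were not treated as paired.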

Additional observations from a re-analysis of the deposited data

How the results depend on the processing

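Of 417 values of the 7 genes in choroid plexus spots under alternatives, 392 kept their direction and their side of the threshold, 1 newly passed it (Kl without young 1) and 24 changed sign. The counts of called genes moved more. In old against young, the 19 calls in choroid plexus spots were 4 with DESeq2, 82 with no filter, 9 with slide as a block, 46 with the replicate block, 12 at a threshold of 0.2%, 8 with the 30 top spots and 13 to 76 with 1 section left out. In middle against young, the 23 calls (12 higher, 11 lower) were 6, 76, 6 and 51 under the first 4 of these, 8 at 0.05%, 5 with the 30 top spots, 84 when scaled to the markers (75 higher, 9 lower) and 15 to 78 with 1 section left out. In old against middle, the 0 calls were 35 with no filter, 20 with the replicate block, 9 with 2 groups only, 2 when scaled to the markers and 0 to 20 with 1 section left out.

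In spots without the other genes, the 1 call in old against young was 2 with DESeq2, 24 with no filter, 0 with slide as a block, 0 with 2 groups only, 57 with the 4-gene rule, 0 when the 12 markers were also at 0, 10 after thinning and 0 to 6 with 1 section left out. In middle against young, the 0 calls were 1, 9, 1 (replicate block), 7 (4-gene rule), 10 (thinned) and 0 to 3, and in old against middle 7 (no filter), 1 (replicate block), 1 (4-gene rule) and 0 to 2. The 5 calls of the test between both kinds of spots were 0 with DESeq2, 55 with no filter, 3 with a newer dispersion estimate chosen after seeing the data, 21 with 2 groups only, 2 at 0.2%, 82 with the 4-gene rule, 3 with the 12 markers at 0, 9 thinned and 0 to 25 with 1 section left out.

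Old minus young was 0.152 percentage points for the share of choroid plexus spots (0.113 to 0.190 with 1 section left out), 4.24 for Ttr UMIs outside them (2.83 to 5.66) and 0.000574 for Ttr as a percent of its choroid plexus level. The last was -0.00757 with the 30 top spots, -0.00527 with the 4-gene rule, -0.00331 with the markers at 0, -0.0229 thinned and -0.0152 to 0.0163 with 1 section left out.

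On the log2 scale, old against young changed sign with the 30 top spots for Trpv4 (0.047), Slco1c1 (0.00675), Car12 (0.032), Folr1 (0.14) and Enpp2 (0.26), with marker scaling for Folr1 (0.083) and Enpp2 (0.11), with slide as a block for Enpp2 (0.011), and at 0.05% for Crym (0.30) and Aqp1 (-0.034). Middle against young did so at 0.05% for Folr1 (-0.071) and Ttr (-0.00245) and with marker scaling for Igf2 (0.030), and old against middle with the 30 top spots for Aqp1 (0.14), Folr1 (0.065) and Igf2 (0.042). With 1 section left out, old against young ran from -0.15 to 0.23 for Aqp1, -0.47 to 0.38 for Folr1, -0.10 to 0.83 for Plpp2 and -0.13 to 0.017 for Enpp2. Middle against young ran from -0.055 to 0.33 for Aqp1 and -0.33 to 0.53 for Folr1. Old against middle ran from -0.29 to 0.075 for Aqp1, -0.33 to 0.023 for Folr1 and -0.026 to 0.26 for Clic6. Ttr in spots without the other genes was -0.47 with slide as a block and -0.11 thinned in old against young, and ran from -0.22 to 0.77, from -1.25 to 0.54 in middle against young and from -0.39 to 1.40 in old against middle, and its difference between both kinds of spots from -0.50 to 0.50. The cause of these changes was not tested. The replicate block moved no call of the 7 genes, and old against young of Apod passed with it (0.76, adjusted p = 0.00746).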

Other observations

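Ins2, the insulin gene next to Igf2 on chromosome 7, was chosen after its values were seen. Its UMIs in choroid plexus spots numbered 32 and 38 (young), 14 and 53 (middle) and 35 and 36 (old), out of 37 and 50, 24 and 63, and 41 and 44 UMIs in the whole section. Igf2, with 406 to 758 UMIs in the same spots, had 27.5% to 40.7% of its UMIs there. Klb had 7 to 15 UMIs in a whole section and 0 in the choroid plexus spots of all sections but old 2, which had 2.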
